A study of Nothobranchius furzeri with 16 samples.

Results

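The genes described are the killifish counterparts of CDKN1A (Nfu_g_1_011849), GADD45B (Nfu_g_1_014962), PLK2 (Nfu_g_1_008977) and SESN1 (Nfu_g_1_018970), 4 of the 26739 genes in a count table of total RNA from whole brain of the annual killifish Nothobranchius furzeri. They were named as stress and growth arrest genes and chosen by their read counts, which stood out between 12 and 5 weeks post hatching (wph) in the strain MZM-0410. Their values in that comparison are therefore given as a description without a test. The 16 libraries fall into 4 groups of 4 libraries: young MZM-0410 fish of 5 wph, adult MZM-0410 fish of 12 wph, old MZM-0410 fish of 39 wph, and young fish of the strain GRZ at 5 wph. MZM-0410 is derived from wild fish and GRZ is an inbred laboratory strain with a shorter life. The labels name no transgene and no drug, and every animal was fasted and taken at the same hour. The labels give each library as a sample of its own and the study speaks of single animals, yet no label pairs libraries with named fish, so p values measure the spread between these libraries.

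CDKN1A encodes p21, an inhibitor of cyclin-dependent kinases that FOXO factors induce and that holds cells at the border between G1 and S phase. GADD45B is a small stress sensor that binds upstream kinases of the p38 and JNK pathways and is also induced by neuronal activity in mammals. PLK2 is a polo-like kinase that, in mammalian neurons, is induced by strong activity and weakens synapses, and outside neurons it acts in centriole duplication and in the response to damage. SESN1 is a sestrin: sestrins bind the GATOR2 complex and thereby restrain the growth kinase mTORC1 when leucine is scarce, and SESN1 is a target of FOXO. The 4 were named together as stress and growth arrest genes, but in the brain they are also expressed in cells that no longer divide.

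Symbols are those of human orthologues. The table itself pairs no identifier with a name, and 1 name was held for 5362 genes, so other copies or relatives without a name are not analysed here. In bulk tissue, fewer cells of a type and less RNA per cell cannot be told apart. Reads were counted without regard to strand, so a gene and an antisense or overlapping partner cannot be separated, and near-identical copies can share reads.

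Total counts ran from 3931420 to 10645432 reads per library, and were lowest in MZM-0410 at 5 wph with 3931420 to 8241819. Levels are counts relative to the library total (CPM) with TMM scaling, a correction for differences in library composition. Neuronal, glial and oligodendrocyte markers were detected in every group. GRZ replicate 4 was the highest GRZ library for CDKN1A. Its gap to the next library was 0.772 of the group's range and did not pass Dixon's test, and comparisons in which it decided the call for CDKN1A are given with and without it. The weight of this library was not limited to CDKN1A. Without it, 2664 genes in place of 1854 had an adjusted p under 0.05 by edgeR in GRZ against young MZM-0410. Against adult MZM-0410 there were 3276 in place of 2067.

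CDKN1A had CPM values of 14, 17.2, 15.2 and 15.4 in the young MZM-0410 fish (replicates 11, 12, 14 and 15). At 12 wph the values were 55.4, 60.2, 57.1 and 64.6 CPM (replicates 1, 3, 4 and 5). The young and the adult libraries were far apart, and both groups were tight, with SDs of 1.34 and 4.05 CPM. Old fish gave 62.7, 48.0, 66 and 86.5 CPM (replicates 6, 8, 9 and 10), a wider spread that enclosed the adult values. In GRZ the level was 19.2, 25.2, 26.6 and 51.6 CPM (replicates 1 to 4). GRZ replicates 1 to 3 lay just above the young MZM-0410 fish, and replicate 4 came close to the adult ones.

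GADD45B was rare in young MZM-0410 brains, where the libraries held 4, 2, 4 and 4 reads of it, or 1.02, 0.239, 0.853 and 0.858 CPM. At 12 wph it was at 5.48, 7.30, 3.71 and 4.30 CPM, and at 39 wph at 3.86, 5.03, 5.92 and 8.08 CPM. The adult and old libraries overlapped over most of their range, and all lay above every young library. The GRZ libraries held 3.19, 3.30, 4.58 and 4.07 CPM, inside or just below the adult range and apart from MZM-0410 of the same age. Because the young group rests on 14 reads in all, the pooled ratio of 12 to 5 wph was 8.25 with an exact 95% interval of 4.77 to 15.4, which covers counting error only. It comes from the contrast in which the gene stood out and is a description, not a test.

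PLK2 stood at 98.2, 79.2, 96.8 and 103.8 CPM in the young MZM-0410 libraries. The adult libraries split into replicates 1 and 3 with 198.6 and 196.5 CPM and replicates 4 and 5 with 141.2 and 153.3 CPM. In old fish the values were 217.8, 204.5, 225.8 and 234.8 CPM. The 3 ages of MZM-0410 did not overlap for this gene. GRZ at 5 wph had 179.1, 173.4, 157.8 and 146.6 CPM, between the extremes of the adult group.

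SESN1 values lay close together in the young MZM-0410 libraries, at 61.59, 61.74, 61.65 and 63.25 CPM. They rest on 242, 516, 289 and 295 reads. A spread this small is below counting error, so it is not read as constancy among fish. It was at 143.2, 124.8, 111.3 and 118.7 CPM at 12 wph and at 96.1, 110.5, 114.0 and 131.3 CPM at 39 wph. The old libraries reached below the adult ones but overlapped with them. GRZ had 101.9, 112.8, 86.5 and 100.0 CPM. None of the GRZ libraries came down to the young MZM-0410 level, and only replicate 2 entered the adult range.

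**Figure D1:**
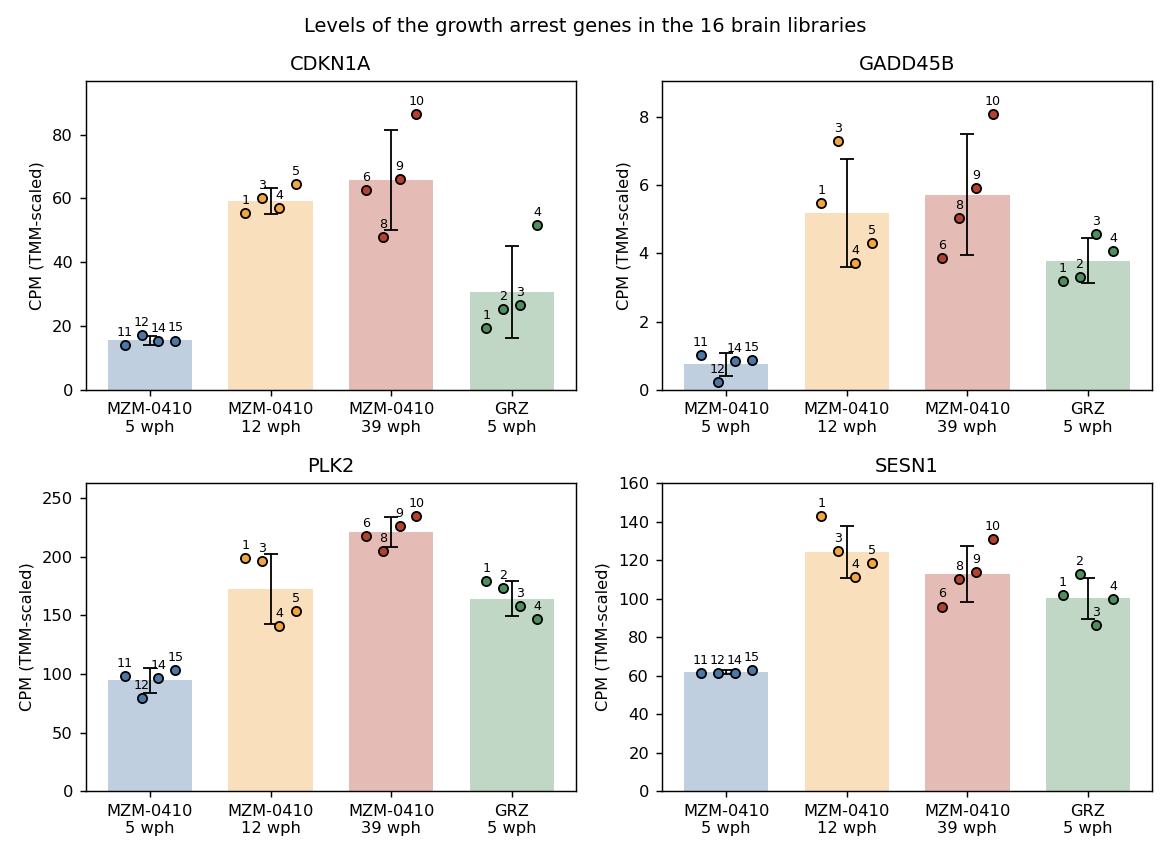
CPM of each member in the 16 libraries, by group, each panel with its own linear axis from 0. Bars are group means, error bars 1 SD with n = 4, and points are libraries labelled with their replicate number. For each gene the 4 young MZM-0410 libraries are the lowest, and GRZ replicate 4 is the highest GRZ point for CDKN1A alone.

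The plot of levels by library shows the order of the group means. For CDKN1A, GADD45B and PLK2 it was MZM-0410 at 5 wph, GRZ at 5 wph, MZM-0410 at 12 wph and MZM-0410 at 39 wph, and for SESN1 the last 2 groups changed places. Neighbours in that order whose libraries overlapped were the adult and the old group for CDKN1A, GADD45B and SESN1, GRZ and the adult group for GADD45B and PLK2, and GRZ and the old group for SESN1. The young MZM-0410 group never overlapped with its neighbour.

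Between 12 and 5 wph in MZM-0410, the contrast in which the members had stood out, the adult group was 3.82-fold higher for CDKN1A (95% interval 3.32 to 4.38), and 7.75-fold for GADD45B (4.33 to 13.9). The fold was smaller for PLK2 at 1.84 (1.51 to 2.25) and for SESN1 at 2.01 (1.79 to 2.27). All 4 were higher with groups that did not overlap, where 4.64% of all genes tested were past the threshold as higher and 7.38% were higher without overlap. Nothing is read from this count, as the contrast had a part in the choice of the genes. For the same reason the folds can be too large, and their intervals do not allow for the choice.

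The comparison of old with adult fish asks whether the difference goes on later in life. The test was the two-sided quasi-likelihood F test of edgeR, fitted to the 8 libraries involved, and its p values were adjusted by Benjamini-Hochberg across every gene in the fit. A gene passed where this adjusted p was under 0.05. Of the 4 members 0 passed, beside 9.65% of all genes in either direction, and the unadjusted p was under 0.05 for PLK2 alone (0.00768). This comparison shares the 12 wph libraries with the contrast in which the genes stood out.

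For CDKN1A the difference of old minus adult was 0.15 on the log2 scale with an interval of -0.19 to 0.49 (adjusted p = 0.584 by edgeR). GADD45B differed by 0.13 (-0.44 to 0.70, adjusted p = 0.807 by edgeR) and SESN1 by -0.14 (-0.36 to 0.08, adjusted p = 0.415 by edgeR). As folds, the intervals ran from 0.877 to 1.40 for CDKN1A, from 0.736 to 1.62 for GADD45B and from 0.781 to 1.06 for SESN1, and the SE on the log2 scale was smallest for SESN1 (0.10) and largest for GADD45B (0.26). The sign was not stable for CDKN1A and GADD45B: without old replicate 10 the differences were -0.01 and -0.09, and without adult replicate 4 that of GADD45B was -0.01.

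PLK2 was 0.36 ± 0.11 (SE) higher in old than in adult fish on the log2 scale, or 1.28-fold, and its 4 old libraries all lay above the 4 adult ones, as did those of 8.08% of all genes. Its adjusted p was 0.0645 by edgeR, 0.0181 by DESeq2 and 0.0386 with edgeR on all 16 libraries in one fit. Without adult replicate 1 the adjusted p was 0.0390 (0.43), and without adult replicate 3 it was 0.0489 (0.43), and these are the adult libraries with the highest PLK2. Whether PLK2 passed thus depended on these fits and libraries.

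Old fish had higher levels than young fish for 4 of the 4 members, and 12.4% of all genes passed in that direction. The young libraries in this comparison are those of the contrast in which the genes stood out. Their low values had a part in the choice, so the count and the p values are not independent of it. Age and library depth also differ together here. Old libraries held 8267607 to 8740860 reads and young ones 3931420 to 8241819. CDKN1A was higher by 2.08 ± 0.17 (SE) on the log2 scale or 4.22-fold (adjusted p = 2.64e-05 by edgeR), and GADD45B by 3.08 ± 0.39 or 8.46-fold (9.38e-05). PLK2 rose by 1.23 ± 0.08 or 2.35-fold (7.44e-07), and SESN1 by 0.87 ± 0.08 or 1.82-fold (1.27e-05). No old library overlapped with a young one for any of them, against 13.0% of all genes that were higher without overlap, and each call held without any 1 library.

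**Figure D2:**
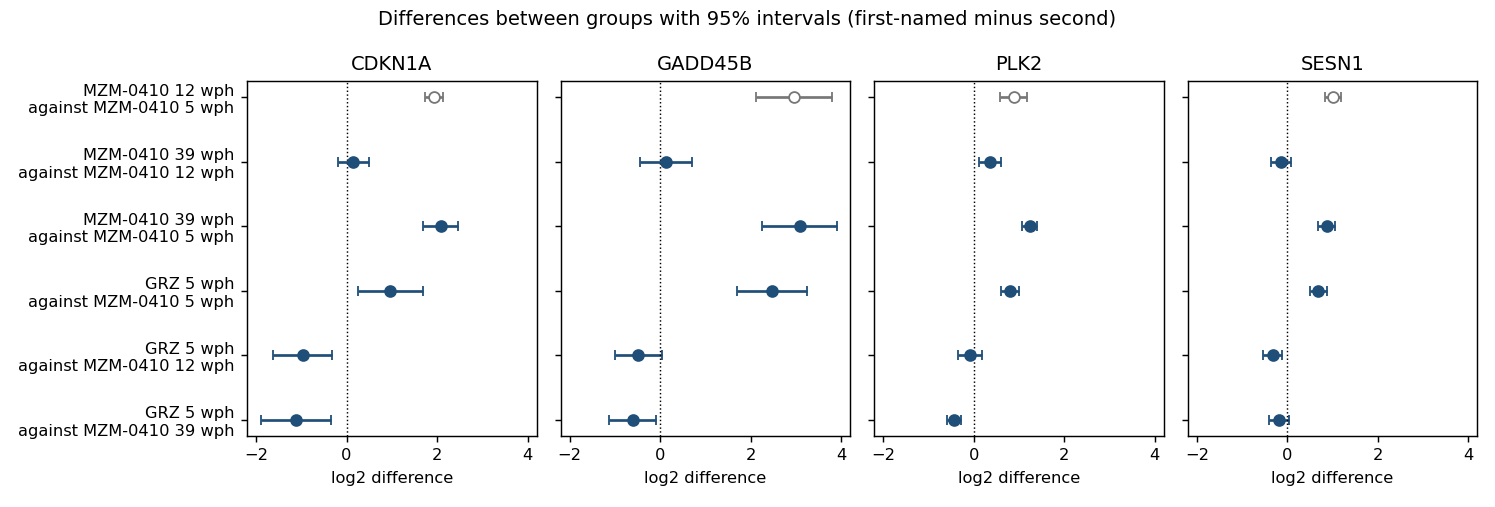
Differences in log2 level between groups for the 4 members, first-named group minus second, with 95% intervals from edgeR on 8 libraries each. Open grey points mark 12 against 5 wph, a description only. The intervals for old against young lie above 0 for all 4 genes, and those for old against adult lie above 0 for PLK2 alone.

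Next the strains were compared at 5 wph. GRZ fish had higher levels of 3 of the 4 members than MZM-0410 fish of the same age, and 5.47% of all genes were higher. The MZM-0410 libraries here are again the young ones of the first contrast, so these values too are not independent of the choice. Strain and library depth also differ together here. GADD45B was higher by 2.47 ± 0.37 (SE) on the log2 scale or 5.54-fold (adjusted p = 0.000669 by edgeR), with a pooled ratio of reads of 5.88 and a counting interval of 3.39 to 11. PLK2 was higher by 0.80 ± 0.09 or 1.74-fold (6.67e-05) and SESN1 by 0.69 ± 0.08 or 1.61-fold (0.000133). These calls held without any 1 library.

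CDKN1A was 1.95-fold higher in GRZ than in MZM-0410 at 5 wph, by 0.96 ± 0.31 (SE) on the log2 scale, and did not pass (adjusted p = 0.0913 by edgeR) although its libraries did not overlap. In all, 4 of 4 members did not overlap between the strains, and 8.87% of all genes were higher in GRZ without overlap. Replicate 4 of GRZ both raised the mean and widened the spread: without it the difference fell to 0.59 and passed (adjusted p = 0.00819 by edgeR). It also passed without GRZ replicate 1 (1.14, 0.0364), with DESeq2 (0.98, 0.00265) and with all 16 libraries in one fit (0.97, 0.0389).

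The adult MZM-0410 libraries belong to the contrast in which the genes stood out, and their high values had a part in the choice. Lower values in GRZ than in adult fish are therefore not independent of it. Against adult MZM-0410 fish, where strain and age differ together and cannot be told apart, GRZ was lower for 1 of the 4 members, beside 6.54% of all genes. That gene was SESN1, at 0.798-fold the adult level (-0.33 ± 0.10, adjusted p = 0.0499 by edgeR), and its libraries overlapped. The call was lost without adult replicate 1 (0.126), 3 (0.0980) or 5 (0.0807) and without GRZ replicate 1 (0.107), 3 (0.131) or 4 (0.0686). It was also lost with RLE factors in place of TMM (0.0527) and with no filter on low counts (0.0541).

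CDKN1A was 0.510-fold the adult level in GRZ, with no overlap between libraries, as in 8.53% of all genes that were lower, and did not pass (-0.97 ± 0.28, adjusted p = 0.0636 by edgeR). Without GRZ replicate 4 the difference was -1.33 and passed (3.60e-05), and it passed with DESeq2 (-0.96, 0.0255) and in the fit of all 16 libraries (-0.96, 0.0188). GADD45B differed from the adult fish by -0.48 (interval -1.0 to 0.04, adjusted p = 0.211 by edgeR). PLK2 was close to the adult level, at -0.09 with an interval of -0.34 to 0.17 (0.684). These values too rest on the adult libraries that had a part in the choice.

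GRZ against old MZM-0410 is the comparison that shares no library with the contrast in which the genes stood out, but strain and age again differ together. Here 2 of 4 members were lower in GRZ, and 15.7% of all genes were. PLK2 was at 0.738-fold the old level (-0.44 ± 0.07 SE, adjusted p = 0.000793 by edgeR), with no overlap, as in 14.6% of all genes that were lower, and the call held without any 1 library. GADD45B missed the threshold (-0.61, interval -1.12 to -0.09, 0.0678) and passed without old replicate 6 (-0.75, 0.0332). SESN1 was lower by 0.18 with an interval of -0.41 to 0.04 (0.196).

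CDKN1A was at 0.461-fold the old level in GRZ (-1.12 ± 0.33 SE, adjusted p = 0.0412 by edgeR), although GRZ replicate 4 (51.6 CPM) overlapped with old replicate 8 (48.0 CPM). The call was lost without old replicate 10 (0.0935), 6 (0.0819) or 9 (0.0813), without GRZ replicate 1 (0.0832), 2 (0.106) or 3 (0.109), and with no filter on low counts (0.0563). Without GRZ replicate 4 the difference was -1.47.

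The proportions between members within a library do not depend on how libraries are scaled. The ratio of PLK2 to SESN1 reads was 2.27, 1.85, 1.98 and 1.79 in old fish, and 1.39, 1.57, 1.27 and 1.29 in adult fish. Every old library exceeded every adult and every young one, the latter with 1.28 to 1.64. An exact permutation test, two-sided, gave the smallest p that 4 against 4 libraries allow, 0.0286, for both contrasts. It was 0.0953 after adjustment over the 30 ratio tests that were run, and no ratio passed. With this smallest p a ratio could pass only if most of the 30 tests reached it. The lack of a pass is therefore not read as a lack of difference. Both contrasts also use libraries of the contrast in which the genes stood out, so they are not independent of the choice.

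CDKN1A relative to PLK2 was lowest in the young MZM-0410 fish, at 0.142 to 0.217, and in GRZ replicates 1 to 3, at 0.107, 0.145 and 0.169. GRZ replicate 4 was at 0.352, inside the range of the old fish (0.235 to 0.368) and of the adult fish (0.279 to 0.421). GADD45B relative to SESN1 behaved otherwise: all 4 GRZ libraries, at 0.0293 to 0.0529, were above the young MZM-0410 range of 0.00388 to 0.0165. Neither contrast of GRZ with young MZM-0410 passed over the 30 tests (adjusted exact permutation p = 0.828 for CDKN1A over PLK2 and 0.0953 for GADD45B over SESN1). For GADD45B over SESN1 the unadjusted p was again the smallest possible, 0.0286. The young libraries held only 2 to 4 GADD45B reads each, and their low values had a part in the choice of the genes. The ratios against young MZM-0410 and their p values are therefore not independent of it.

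**Figure D3:**
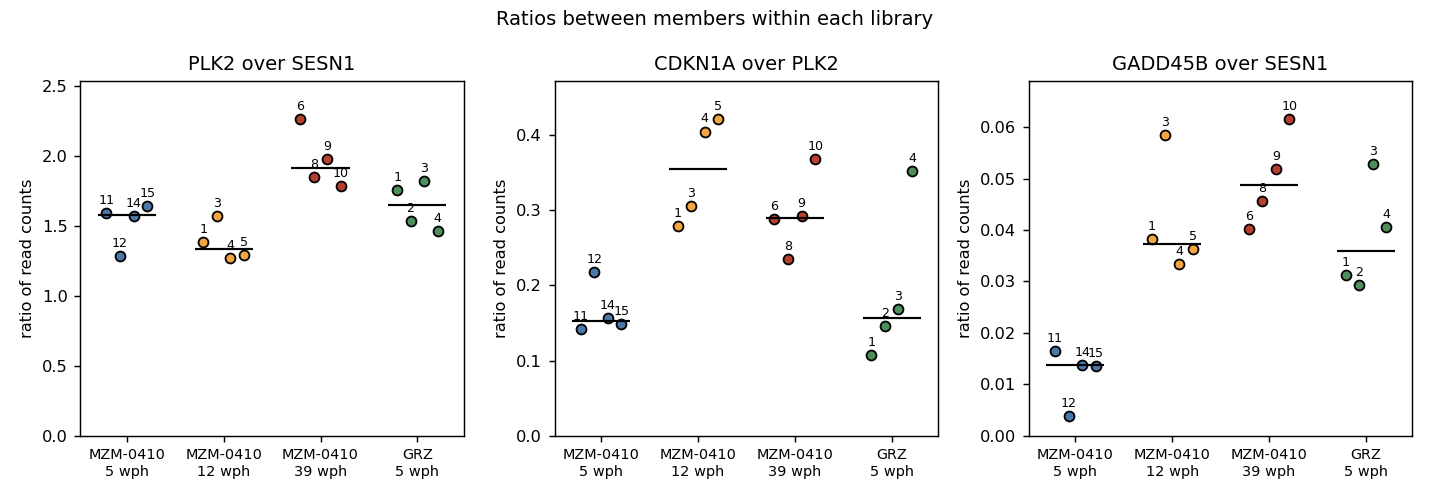
Ratios of the read counts of member pairs within each library, by group, on linear axes from 0. Points are libraries labelled with their replicate number and lines are group medians. The old group is the highest for PLK2 over SESN1, and GRZ replicate 4 is the highest GRZ library for CDKN1A over PLK2.

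Across the 16 libraries the log2 levels of the members were correlated with r of 0.786 (CDKN1A and PLK2) to 0.931 (GADD45B and PLK2). The differences between groups enter these values. When the group means were taken out, the pair of GADD45B and PLK2 kept 0.636 and PLK2 and SESN1 0.546, while CDKN1A was at -0.278 with PLK2 and 0.117 with SESN1. GRZ replicate 4 was the highest GRZ library for CDKN1A and the lowest for PLK2, and r without it was not computed. The points of each correlation share library and depth, and no p is given.

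Among the 18623 genes compared, the named genes whose log2 level over the 16 libraries was most like that of CDKN1A were IRS2 (r = 0.960), an adaptor of the insulin receptor, PITPNM2 (0.949), VDR (0.946), the vitamin D receptor, TAX1BP1 (0.945) and EZH2 (0.939), the methyltransferase of the Polycomb complex. With group means taken out, IRS2 kept 0.816, EZH2 0.816, VDR 0.783, TAX1BP1 0.651 and PITPNM2 0.506. The genes were picked by r over these same libraries, which favours high r within groups as well. GRZ replicate 4, at 51.6 CPM of CDKN1A against 19.2 to 26.6 CPM in the other GRZ libraries, weighs on these values. They were not computed without it. Mean IRS2 levels were 62.6, 185.3, 220.4 and 133.0 CPM in MZM-0410 at 5, 12 and 39 wph and in GRZ, the same order of groups as for CDKN1A.

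Nearest to GADD45B were TIPARP (r = 0.972), KLF9 (0.971), ADGRB1 (0.960), MCL1 (0.954), an anti-apoptotic member of the BCL2 family, and MAGIX (0.954). KLF9, a transcription factor induced by glucocorticoid and thyroid hormone, went from a mean of 7.73 CPM in young to 55.4 and 67.4 CPM in adult and old MZM-0410 fish, and was at 51.8 CPM in GRZ. PLK2 was followed most closely by a copy of CSRNP1 (Nfu_g_1_020439, r = 0.977), then by ADGRB1 (0.955), MAGIX (0.950), the chaperone gene DNAJB5 (0.947) and EGR4 (0.944), an early growth response factor induced by neuronal activity. For SESN1 the list was SEC14L1 (0.966), another CSRNP1 copy (Nfu_g_1_011365, 0.965), ZBTB16 (0.960), MAGIX (0.957) and SLC35E4 (0.949). With group means taken out, r ran from 0.568 (MAGIX) to 0.776 (KLF9) for GADD45B. It ran from 0.612 (ADGRB1) to 0.792 (CSRNP1) for PLK2 and from 0.395 (SLC35E4) to 0.756 (CSRNP1) for SESN1. These genes too were picked by r over the same libraries, which favours high r within groups. MAGIX thus stood on 3 of the 4 lists, and the lists of CDKN1A and of the other members had no gene in common.

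The families of the members hold 9 further named genes. Another gene carries the name CDKN1A (Nfu_g_1_020871), at a mean of 2.80 ± 1.65 CPM (SD, n = 4) in young, 7.82 ± 1.55 in adult and 10.4 ± 3.03 in old MZM-0410 fish and 6.75 ± 0.645 in GRZ. Like the member it was higher in old than in young fish (1.97 ± 0.33 SE on the log2 scale, adjusted p = 0.00116 by edgeR). It passed in GRZ against young MZM-0410 (1.33 ± 0.29, 0.0108), and lost that call without young replicate 12 (1.17, 0.0517). The member did not pass there (0.96 ± 0.31, 0.0913), and the difference between it and the member was not tested. GRZ replicate 4, with 6.10 CPM, was the lowest GRZ library for this copy. CDKN1B, which encodes the related inhibitor p27, was at 7.58 ± 0.576 CPM in young and 16.1 ± 0.310 CPM in adult fish, and was higher in old than in young fish (0.83 ± 0.19, 0.00617).

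CDKN1B also passed in GRZ against young MZM-0410 (0.56 ± 0.15 SE on the log2 scale, adjusted p = 0.0261 by edgeR), but not without young replicate 11 (0.0556), 14 (0.0635) or 15 (0.0664) or without GRZ replicate 1 (0.0597), nor with DESeq2 (0.0552). In GRZ against adult fish it was lower by 0.52 (0.0138), a call that held without any 1 library. The call was lost in a fit of only the libraries with shared replicate numbers, with these as a block (-0.50, 0.141). Other CDK inhibitors were not analysed here.

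A second GADD45B gene (Nfu_g_1_002546) was more evenly expressed, at 15.4 ± 2.69 CPM (SD, n = 4) in young, 26.9 ± 10.9 in adult and 43.9 ± 8.10 in old MZM-0410 fish and 21.1 ± 4.02 in GRZ. Old fish exceeded young fish by 1.53 ± 0.16 (SE) on the log2 scale (adjusted p = 3.98e-05 by edgeR) and GRZ fish by 1.06 ± 0.16 (0.000606), both without overlap. For GRZ against young MZM-0410 it did not pass (0.46, interval 0.11 to 0.81, 0.0840), where the member GADD45B did, and the difference between the copies was not tested. For old against adult fish it did not pass (0.72 ± 0.27, 0.143) by edgeR on all 8 libraries, and passed with DESeq2 (0.71, 0.0221) and without adult replicate 1 (0.99, 0.0214).

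GADD45A, a family member induced by DNA damage, was at 2.98 ± 0.590 CPM (SD, n = 4) in young, 6.35 ± 0.752 in adult and 6.62 ± 0.907 in old fish, and rose from young to old (1.16 ± 0.21 SE on the log2 scale, adjusted p = 0.00116 by edgeR). In GRZ it was above young MZM-0410 by 0.79 ± 0.22 (0.0311), which was lost without young replicate 12 (0.0813), 14 (0.0789) or 15 (0.0780) and without GRZ replicate 1 (0.0647), 2 (0.0682) or 3 (0.0811), and with DESeq2 (0.0724).

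GADD45G, which acts in neurogenesis and in stress signalling, varied most among old fish, with 24.1, 17.2, 53 and 50.5 CPM. Replicates 9 and 10 of the old group were high and replicates 6 and 8 lay in the adult range of 12.6 to 28.9 CPM. It passed for old against young (1.71 ± 0.45 SE on the log2 scale, adjusted p = 0.0350 by edgeR), but not without old replicate 9 (0.0588) or 10 (0.0761) or without young replicate 11 (0.0822), 12 (0.0865), 14 (0.0778) or 15 (0.0865). In GRZ it was higher than in young MZM-0410 by 0.91 ± 0.16 (0.00285). This call held without any 1 library and was lost in the fit of all 16 libraries (0.92, 0.148).

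The polo-like kinases went in opposite directions with age. PLK3, a stress-induced relative of PLK2, was higher in old than in young fish (0.50 ± 0.07 SE on the log2 scale, adjusted p = 0.000147 by edgeR) and in GRZ than in young MZM-0410 (0.49 ± 0.07, 0.000538). PLK1, the kinase of mitotic entry, was at 13.4 ± 2.56 CPM (SD, n = 4) in young, 7.10 ± 0.751 in adult and 2.92 ± 0.591 in old fish. It fell from young to old by 2.20 ± 0.20 (7.37e-06) and from adult to old by 1.28 ± 0.19 (0.00370). PLK4, which starts centriole duplication, was lower in old than in young fish (-1.01 ± 0.21, 0.00269).

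PLK1 and PLK4 did not pass in GRZ against young MZM-0410 at -0.60 (adjusted p = 0.0551 by edgeR) and -0.63 (0.0571), and passed there without young replicate 15 (0.0452 and 0.0454) and in the fit of all 16 libraries (0.0387 and 0.0384). PLK1 also passed without GRZ replicate 3 (0.0325) and with library totals in place of TMM (0.0494).

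SESN2, the sestrin that amino acid shortage induces through ATF4 in mammals, had another pattern than SESN1. Its level in MZM-0410 was 17.4 ± 1.75 CPM (SD, n = 4) in young, 17.9 ± 0.434 in adult and 18.3 ± 3.59 in old fish, and old minus young was 0.06 with an interval of -0.24 to 0.37. GRZ libraries held 24.6, 28.6, 21.2 and 33.8 CPM, above every young and adult MZM-0410 library. The excess of GRZ was 0.62 ± 0.15 (SE) on the log2 scale over young (adjusted p = 0.0160 by edgeR), 0.58 ± 0.14 over adult (0.0194) and 0.55 ± 0.17 over old fish (0.0252). The first was lost without young replicate 14 (0.0522). The second was lost without GRZ replicate 2 (0.0513) and in the replicate block fit of the libraries with shared numbers (0.53, 0.134). The third was lost without old replicate 9 (0.0690) or 10 (0.0660) or GRZ replicate 2 (0.0592). Other sestrins were not analysed here.

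**Figure D4:**
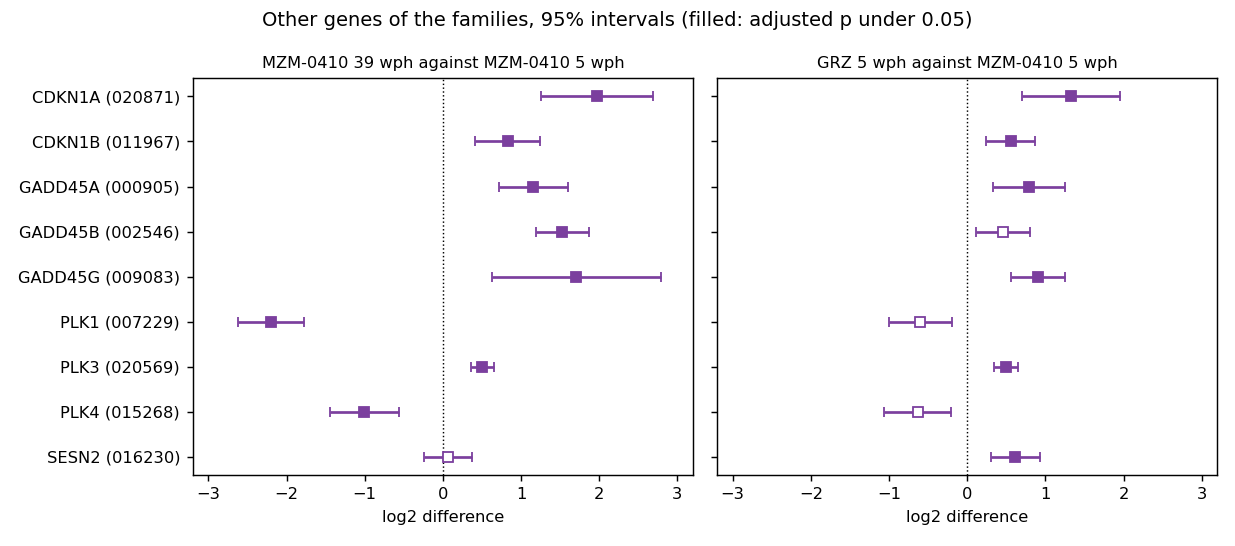
Log2 differences with 95% intervals from edgeR for the 9 other named genes of the families, old against young MZM-0410 on the left and GRZ against young MZM-0410 on the right. Filled squares have an adjusted p under 0.05, and the last 6 digits of the identifier follow each symbol. PLK1 and PLK4 lie below 0 and SESN2 on it with age, and SESN2 lies above 0 in GRZ.

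Lists of genes that work with the members were counted in the same fits, without the members. They were written with earlier results of these data known, and the source of names favours genes that changed. Between old and young MZM-0410 fish 19.8% of named genes were higher and 22.9% lower, in GRZ against young MZM-0410 8.93% and 6.01%, and in adult against young fish 13.3% and 6.92%.

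Of 32 cell cycle genes, 26 were lower and 1 higher in old than in young fish, with a median of -1.21 on the log2 scale beside 0.00 for all genes, and 23 were lower and 1 higher in adult than in young fish. MKI67, the proliferation marker, was at 57.1 ± 4.24 CPM (SD, n = 4) in young, 24.2 ± 2.49 in adult and 11.1 ± 3.22 in old fish (old minus young -2.36 ± 0.17 SE, adjusted p = 7.57e-06 by edgeR). CENPF, a kinetochore protein, fell by 1.96 ± 0.12 (7.44e-07), TPX2, a spindle assembly factor, by 2.11 ± 0.16 (1.54e-06), and RRM2, a subunit of ribonucleotide reductase, by 1.91 ± 0.17 (7.37e-06).

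Between the strains at 5 wph the cell cycle list was split, with 9 lower and 3 higher in GRZ. MKI67 was at 31.3 ± 4.73 CPM in GRZ (SD, n = 4), lower by 0.88 ± 0.11 (SE) on the log2 scale than in young MZM-0410 (adjusted p = 0.000103 by edgeR), and TOP2A, a topoisomerase of dividing cells, was higher by 1.09 ± 0.08 (7.41e-07). The count of lower genes was 5 without young replicate 12.

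Of 23 FOXO and stress response genes, 13 were higher and 4 lower in old than in young fish, with a median of 0.38 on the log2 scale, and the count of lower genes was 2 without old replicate 9. CEBPB, a stress-induced transcription factor, was at 3.75 ± 0.834 CPM (SD, n = 4) in young and 19.0 ± 4.38 CPM in old fish (2.34 ± 0.21 SE, adjusted p = 7.37e-06 by edgeR), and ERRFI1 rose by 0.89 ± 0.09 (1.27e-05). Amino acid response gene ASNS, asparagine synthetase, went the other way by -1.40 ± 0.19 (0.000493). Adult fish were higher than young fish for 16 of the 23 and lower for 3, among them FOXO3 (Nfu_g_1_004534), which was higher by 0.84 ± 0.09 (6.42e-05), and TXNIP, higher by 1.01 ± 0.11 (0.000105). The count of lower genes was 1 without adult replicate 3, 4 or 5 or young replicate 12 or 14.

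In GRZ, 8 of the 23 FOXO and stress response genes were higher and 1 lower than in young MZM-0410, and the 1 lower gene was lost without young replicate 12 or GRZ replicate 1, 3 or 4. DDIT4, an inhibitor of mTORC1 induced by stress, was at 99.9 ± 26.5 CPM (SD, n = 4) in GRZ and 40.1 ± 2.48 CPM in young MZM-0410 (1.32 ± 0.19 SE on the log2 scale, adjusted p = 0.00320 by edgeR). TRIB1 and TRIB2, pseudokinases, were higher by 0.86 ± 0.14 (0.00161) and 0.53 ± 0.07 (0.000340).

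Of 20 partners in the sestrin, GATOR and mTORC1 pathway, 7 were higher and 2 lower in old than in young fish. WDR59, a GATOR2 subunit, was higher by 0.48 ± 0.10 (SE) on the log2 scale (adjusted p = 0.00292 by edgeR) and SEC13, another one, lower by 0.56 ± 0.10 (0.00122). AKT1S1, which encodes the mTORC1 inhibitor PRAS40, was higher by 0.41 ± 0.07 (0.00120). SQSTM1, the autophagy receptor p62, was higher by 0.79 ± 0.09 (5.63e-05). The count of lower genes was 1 without old replicate 6, 9 or 10 or young replicate 12, 14 or 15, and with DESeq2. In GRZ against young MZM-0410, 1 of the 20 was higher and 0 were lower, and that gene was again SQSTM1 (0.44 ± 0.11, 0.0225). Without 1 library the count of higher genes there ran from 0 to 2 and that of lower genes from 0 to 1.

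Among 12 partners and substrates of PLK2, 4 were higher and 4 lower in old than in young fish. Without 1 library the count of lower genes ran from 2 to 4, and that of higher genes stayed at 4. SIPA1L1, also called SPAR, whose protein PLK2 marks for degradation in rodent neurons, was higher by 0.53 ± 0.10 (SE) on the log2 scale (adjusted p = 0.00246 by edgeR), and CENPJ, a centriole protein that PLK2 phosphorylates, was lower by 1.41 ± 0.19 (0.000135). Of 8 partners of the GADD45 proteins 2 were higher and 2 lower. The higher ones were both named copies of MAPK14, which encodes p38, by 0.42 ± 0.10 (Nfu_g_1_020654, 0.00625) and 0.27 ± 0.08 (Nfu_g_1_021305, 0.0266). The lower ones were TDG, a DNA glycosylase of demethylation, by 0.41 ± 0.10 (0.00849) and TET2 by 0.24 ± 0.07 (0.0159). For the GADD45 partners the count of higher genes ran from 1 to 2 without 1 library and that of lower genes from 2 to 3.

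Markers of several cell types also differed between the groups. The summed level of endothelium and pericyte markers over 13 named genes was 382 to 461 CPM in young MZM-0410 and 545 to 619, 496 to 578 and 527 to 661 CPM in adult, old and GRZ fish, with no gene at 0 in all libraries. Of the 13, 8 were higher and 0 lower in old than in young fish, and 6 higher and 0 lower both in adult than in young fish and in GRZ than in young MZM-0410. The first count fell to 5 without old replicate 6 or 8 or young replicate 12, to 4 without old replicate 10 or young replicate 14 and to 3 without young replicate 11. Microglia and macrophage markers summed to 168 to 206 CPM over 5 genes in young and 235 to 285 CPM in old fish, with 3 of 5 higher and 0 lower, and to 189 to 219 CPM in GRZ. Oligodendrocyte markers summed to 2882 to 3506 CPM over 8 genes in young and 1574 to 2079 CPM in old fish, with 6 of 8 lower and 1 higher, and to 2615 to 3073 CPM in GRZ. Radial glia and astrocyte markers summed to 3182 to 3551 CPM over 13 genes in young and 2501 to 2868 CPM in old fish. Of these 13, 5 were lower and 1 higher in old than in young fish, and the sum in GRZ was 2894 to 3455 CPM. Of 5 skeletal muscle markers, 3 were lower and 0 higher in old than in young fish. Of 21 neuronal genes tested 18 were lower and 1 higher in old than in young fish, and the neuronal markers had summed levels of 5605 to 5794 CPM in young and 4542 to 4988 CPM in old fish, and 5501 to 5705 CPM in GRZ. The part of these cell types in the levels of CDKN1A, GADD45B, PLK2 and SESN1 was not tested.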

How the data were processed

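The deposited file holds raw counts, 1 column for each of 16 libraries, with nothing pooled. As the submitters' notes and the study's methods have it, the authors prepared stranded total RNA libraries after depletion of ribosomal RNA, used bcl2fastq 1.8.4, aligned single-end reads with TopHat2 2.1.0 to the Nfu_20150522 genome, and counted with featureCounts 1.5.0 on genebuild_v1.150922, ignoring strand. The study gives n = 5 per age group, and 4 libraries per group were analysed here. Library totals of 3931420 to 10645432 reads limit the precision of rare genes, foremost GADD45B at 5 wph.

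No identifier was found in the reference gene table used (NfurGRZ-RIMD1, 0 matches), so names were taken from pairs of identifier and human orthologue in supplementary tables of the study, held in part, with no value from them. They named 5362 genes, or 20.1% of the table. No sequence is printed for the members.

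Comparisons were fitted one by one on 8 libraries in R 4.3.3, with filterByExpr, TMM and edgeR 4.0.16 (robust quasi-likelihood F test, two-sided). Benjamini-Hochberg adjustment covered every gene in a fit, with a threshold of 0.05. Standard errors and 95% intervals come from the same fits. The study used DESeq2, which was an alternative here (1.42.0). Levels are CPM with TMM over the 16 libraries, and correlations used log2 CPM with a prior count of 2. Ratios of counts within libraries were tested by exact permutation with scipy 1.17.1 in Python 3.11.15. The procedure was tested on simulated counts with known changes. Other alternatives were RLE factors, library totals alone, no filter on low counts, all 16 libraries in one fit and leaving out each library. Where 2 groups share replicate numbers, the libraries with shared numbers were also fitted with a replicate block.

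Named are the members, the other named genes of their families, up to 4 genes per pathway list and comparison with the smallest p, and for each member the 5 named genes most like it. Of the lists, CDK inhibitors and the GADD45, polo-like kinase and sestrin families are given gene by gene. Members and lists were chosen with earlier results of these data known. Some of the genes that this rule names, and 1 list that holds them, are not reported here.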

Additional observations from a re-analysis of the deposited data

Results flagged for a closer look

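Over the 4 members and the 9 other family genes, 52 groups of 4 libraries were searched for a library far from the rest of its group by Dixon's test, and 2 stood out, where chance gives about 1 in 20 groups. GADD45G was at 26.87 CPM in GRZ replicate 4 and at 18.69 to 19.35 CPM in the other GRZ libraries, and this is also the library with the highest CDKN1A of its group, whose gap did not pass that test. SESN1 was at 63.25 CPM in replicate 15 of MZM-0410 at 5 wph and at 61.59 to 61.74 CPM in the others, a gap that is small beside the level of any other group. Replicate 15 held 295 SESN1 reads, and the gap is within the counting error of that number.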

How the results depend on the processing

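Under the alternatives other than leaving out each library, 114 of the 124 values of the member differences kept their direction and their side of the threshold. Of these values 0 reversed. Without 1 library 171 of 192 did, and 3 that had not passed reversed, all in old against adult fish: CDKN1A without old replicate 10 (-0.011), and GADD45B without old replicate 10 (-0.086) or adult replicate 4 (-0.007). Both counts include adult against young fish, the contrast in which the genes stood out. Every value kept its direction and side there, which raises both counts. Nothing is read from that part, as the contrast had a part in the choice. The level of each member in each group moved by less than its SD with RLE factors (16 of 16). For PLK2 in old against adult fish the difference passed with DESeq2 (0.361) and in the fit of all 16 libraries (0.357). CDKN1A passed under the same 2 alternatives in GRZ against young MZM-0410 (0.978 and 0.971) and in GRZ against adult fish (-0.958 and -0.957). SESN1 in GRZ against adult fish no longer passed with RLE factors (-0.319) or with no filter on low counts (-0.312). The same held for the replicate block fit of the libraries with shared numbers (-0.406, adjusted p = 0.0872 by edgeR). Nor did CDKN1A pass in GRZ against old fish with no filter (-1.112). The cause was not tested.

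Without 1 library the differences in old against adult fish ran from -0.011 to 0.275 for CDKN1A, from -0.086 to 0.364 for GADD45B and from 0.271 to 0.430 for PLK2. For CDKN1A they ran from 0.595 to 1.14 in GRZ against young, from -1.334 to -0.797 against adult and from -1.47 to -0.947 against old MZM-0410. SESN1 in GRZ against adult fish ran from -0.390 to -0.244, and GADD45B in GRZ against old fish from -0.747 to -0.388. Among the relatives, differences that had not passed changed sign without some single library for GADD45A (-0.033 to 0.126) and SESN2 (-0.075 to 0.128) in old against adult fish, SESN2 in adult (-0.023 to 0.107) and old (-0.045 to 0.167) against young fish, GADD45G (-0.194 to 0.155) and PLK4 (-0.030 to 0.161) in GRZ against adult fish and PLK3 in GRZ against old fish (-0.041 to 0.035).

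The number of genes past the threshold was 1205 in adult against young fish and 739 to 1064 without 1 library (739 without young replicate 14). In old against adult fish it was 1735, and 716 to 1645 (716 without old replicate 6, 1042 without 9, 1125 without 10 or adult replicate 5, 1130 without adult replicate 3). In GRZ against young MZM-0410 it was 1854, and 1120 to 2664 (1120 without young replicate 12, 1235 without GRZ replicate 2, 2664 without GRZ replicate 4). In GRZ against adult fish it was 2067, and 1076 to 3276 (1076, 1291, 1268 and 3276 without GRZ replicates 1 to 4). GRZ and adult MZM-0410 share the replicate numbers 1, 3 and 4 in the labels. A fit with these numbers as a replicate block, which left out GRZ replicate 2 and adult replicate 5, gave a count of 462. In that fit the differences of GADD45G (0.018) and PLK3 (-0.009), which had not passed, changed sign. CDKN1B (-0.497, adjusted p = 0.141 by edgeR) and SESN2 (0.526, 0.134) no longer passed there. The part of the block and that of the fewer libraries are not told apart here. Deviations of same-numbered libraries were correlated at -0.101, 0.002 and 0.037, and those of differently numbered ones at -0.077 to 0.098. The libraries were therefore not treated as pairs. The labels do not say what the numbers stand for, and whether they mark a shared batch was not tested.

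At 5 wph the depth limits GADD45B, with 2 to 4 reads per library, more than the other members.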
